A study of Homo sapiens with 6 samples.

Results

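MHC class II molecules carry peptides from taken-up proteins to the surface of antigen-presenting cells, where CD4+ T cells read them. Each classical molecule pairs an alpha chain with a beta chain (HLA-DR, HLA-DP and HLA-DQ). The invariant chain CD74 fills the groove until endosomal proteases cut it down, and HLA-DM then helps to exchange the remaining CD74 fragment for a peptide. Transcription of these genes depends on CIITA, a coactivator that does not bind DNA itself but docks on a complex of RFX, CREB and NF-Y proteins at their promoters. B cells express class II genes without stimulation, and B cells transformed by Epstein-Barr virus usually carry much class II on their surface.

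The 10 genes described here were taken by symbol: the chains HLA-DRA, HLA-DRB1, HLA-DPA1, HLA-DPB1, HLA-DQA1 and HLA-DQB1, the peptide editor HLA-DMA and HLA-DMB, CD74, and CIITA. They are 10 of 23284 gene symbols in the tables. Across all loci the members have 50 records, of which 40 lie on alternate contigs and are 0 in every sample, so the record on the primary assembly was used. On hg19, 8 of the 10 lie within the MHC on chromosome 6, between positions 32407619 and 33057473. CD74 lies on chromosome 5 (149781200 to 149792499) and CIITA on chromosome 16 (10971055 to 11018840).

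RNA came from GM12873, a B-lymphoblastoid line, which is 1 line made by transformation with Epstein-Barr virus. The 3 Control samples were washed cells taken directly into Trizol. The 3 Lyophilized samples were freeze-dried in 0.1 M trehalose and kept 2 weeks at room temperature before extraction. The labels tie each Lyophilized sample to 1 Control sample, which gives pairs 1 to 3, and do not say whether the pairs were grown separately, so p-values measure the spread between these samples. Levels are FPKM values (fragments per kilobase of transcript, scaled to the mapped reads), and changes are differences of log2(FPKM + 0.1), Lyophilized minus Control, unless a ratio of FPKM is named.

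The FPKM tables hold no read counts. The steps between low values show that 1 read was worth 1.895, 1.335 and 0.923 times as much in the Control as in the Lyophilized sample of pairs 1, 2 and 3, so the Lyophilized library was the deeper one in pairs 1 and 2. This estimate rests on the 20.2 to 23.3% of low records that share the most common ratio. B cell markers summed to between 1020 and 1384 FPKM in every sample, against 0.572 to 1.36 for T cell markers, 0.180 to 0.675 for fibroblast markers, 4.77 to 8.55 for markers of monocytes, macrophages or dendritic cells, 4.37 to 7.77 for NK cell markers, 1.03 to 1.63 for epithelial markers and 279 to 331 for plasma cell markers. Fewer cells of a kind and less RNA per cell cannot be told apart in such bulk samples.

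CD74 and HLA-DRA were among the most abundant transcripts of the line. Ranks were taken over all symbols except those of small RNAs. CD74 ranked between 16 and 32 and HLA-DRA between 26 and 38, and HLA-DPA1, HLA-DRB1 and the DQ chains ranked between 87 and 170. HLA-DPB1 ranked lower than the other chains, between 539 and 939, below HLA-DMA (387 to 473), and CIITA ranked between 3328 and 4919. In the Control samples the means fell in the order CD74 (2489 ± 355 FPKM), HLA-DRA (1834 ± 463), HLA-DPA1 (693 ± 117), HLA-DRB1 (592 ± 170), HLA-DQB1 (421 ± 104), HLA-DQA1 (419 ± 117), HLA-DMA (146 ± 7.99), HLA-DPB1 (92.3 ± 23.3), HLA-DMB (60.1 ± 7.01) and CIITA (18.9 ± 0.965) (SD, n = 3). The ranges of CD74 and HLA-DRA overlapped, as did those of each neighbouring pair from HLA-DPA1 to HLA-DQA1. Within samples the order was steadier, since HLA-DPA1 exceeded HLA-DRB1 and HLA-DRB1 exceeded both DQ chains in 6 of 6 samples, and CD74 exceeded HLA-DRA in 5 of 6. HLA-DQA1 and HLA-DQB1 changed places between samples and did not differ beyond their spread. HLA-DRA stood clear of HLA-DPA1, HLA-DQA1 of HLA-DMA, and each gene from HLA-DMA to CIITA of the next. In the Lyophilized samples the same ranges overlapped and the same ones stood clear, with HLA-DQA1 (438 ± 98.1) now marginally above HLA-DQB1 (435 ± 100.4). The plot of FPKM by sample shows the 10 genes in this order. How reads from HLA alleles that differ from hg19 were mapped could not be checked. The order of the HLA genes, and the ratios given further on, therefore describe FPKM values only.

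**Figure D1:**
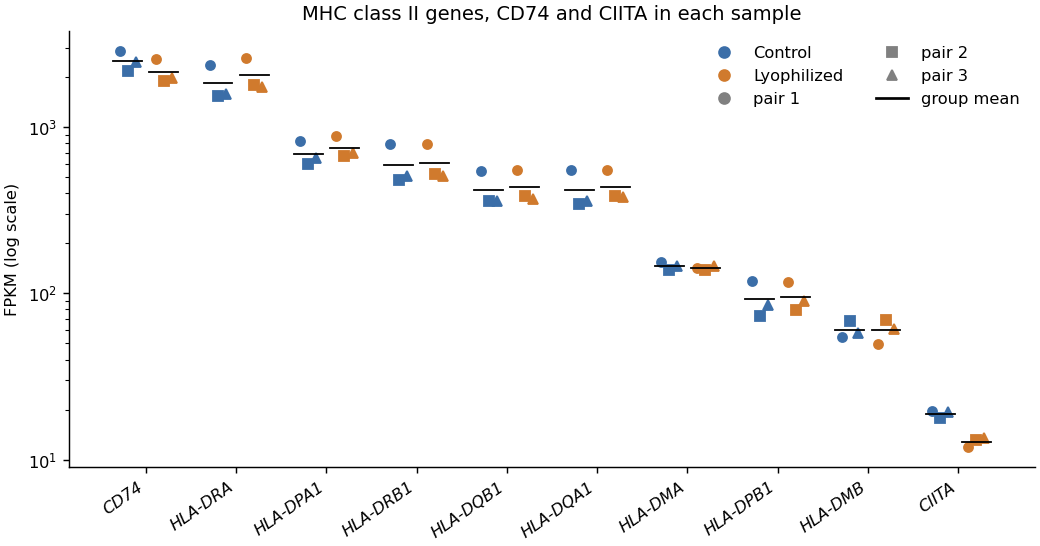
FPKM (log axis) of each member in the 3 Control (blue) and 3 Lyophilized (orange) samples, with the pair given by the marker and the group mean by a line. CIITA is the only member whose groups do not overlap, with Control at 17.8 to 19.6 and Lyophilized at 11.9 to 13.5 FPKM.

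Upstream of the start sites, the letters of the box that NF-Y binds recurred at many of these genes. The windows are shown as a description, and their part in the levels of these genes was not tested. The RefSeq promoter table (GRCh38.p14, 250 bases before to 50 after each start) holds 8 of the 10 members. HLA-DRA and CIITA have no entry in it. Stretches from 130 to 16 bases before the start are printed on the gene's strand, 5′ to 3′. Capitals mark ATTGG, or its reverse complement CCAAT (the box that NF-Y binds), and TGATGA. Both motifs were chosen after the sequences had been seen. Not printed are HLA-DQA1, whose stretch holds ATTGG, and HLA-DPA1, whose stretches hold neither motif.
HLA-DRB1 (chr6:32589864-32589978, minus strand): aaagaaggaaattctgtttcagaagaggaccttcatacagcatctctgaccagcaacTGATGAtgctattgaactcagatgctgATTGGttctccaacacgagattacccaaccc
HLA-DQB1 (chr6:32666673-32666787, minus strand): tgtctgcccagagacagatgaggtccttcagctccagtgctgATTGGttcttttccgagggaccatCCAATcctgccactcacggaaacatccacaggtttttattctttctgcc
HLA-DPB1 (chr6:33075860-33075974, plus strand): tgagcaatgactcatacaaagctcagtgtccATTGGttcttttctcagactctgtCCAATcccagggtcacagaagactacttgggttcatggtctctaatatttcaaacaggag
HLA-DMA (chr6:32953113-32953227, minus strand): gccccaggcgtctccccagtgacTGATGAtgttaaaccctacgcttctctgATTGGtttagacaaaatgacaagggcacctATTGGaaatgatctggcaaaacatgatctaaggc
HLA-DMB (chr6:32941044-32941158, minus strand): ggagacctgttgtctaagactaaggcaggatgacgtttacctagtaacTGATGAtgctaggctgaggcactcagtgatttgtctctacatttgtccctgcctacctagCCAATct
CD74 (chr5:150412926-150413040, minus strand): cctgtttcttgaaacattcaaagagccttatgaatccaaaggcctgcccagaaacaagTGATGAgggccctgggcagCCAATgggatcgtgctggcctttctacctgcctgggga

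Over the full windows and both strands, ATTGG was present in 7 of the 8 members, the exception being HLA-DPA1. Among all 35116 promoters listed, 34.6% hold it. TGATGA was present in 5 members (CD74, HLA-DMA, HLA-DMB, HLA-DPA1 and HLA-DRB1) against 10.9% of all promoters, in HLA-DPA1 only downstream of 1 of its 2 listed starts. Both were present in 4 members (CD74, HLA-DMA, HLA-DMB and HLA-DRB1) against 4.1% of all promoters. At HLA-DRB1 and CD74 TGATGA began 73 and 72 bases before the start and the NF-Y letters 46 and 53 bases before it. HLA-DRB1 also held the NF-Y letters 195 bases before its start. At HLA-DMB TGATGA began 82 bases and the NF-Y letters 22 bases before the start. At HLA-DMA TGATGA began 107 bases before the start and the NF-Y letters 79 and 49 bases before it. Among the matches placed here, the letters read CCAAT at CD74, at HLA-DMB and at the further HLA-DRB1 match, and ATTGG at the rest. HLA-DQA1, HLA-DQB1 and HLA-DPB1 also held both forms. A match describes letters in these windows and is no measured site.

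The comparison of Lyophilized with Control samples asks which class II genes kept their FPKM through drying and storage. Since FPKM is scaled to the mapped reads, a loss shared by all transcripts would not show. CIITA was lower in all 3 pairs and CD74 in all 3 pairs, while HLA-DRA, HLA-DPA1 and HLA-DQB1 were higher in all 3 pairs by small amounts. All 10 members passed the filter on low values (a mean FPKM above 1 in a group). Without the pairing, limma called 0 of the 10 members at an adjusted p of 0.05, against 0.575% of the 11134 genes tested, and 1 member, CIITA, had an unadjusted p below 0.05. With the pair as a replicate block, 4 of 10 were called: CIITA and CD74 fell, against 14.9% of all genes called lower, and HLA-DRA and HLA-DPA1 rose, against 15.9% called higher. The median change of the members was 0.046 on the log2 scale, beside 0.039 over all genes tested.

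CIITA was measured at 19.6, 17.8 and 19.2 FPKM in Control samples 1 to 3 and at 11.9, 13.2 and 13.5 FPKM in Lyophilized samples 1 to 3. Every Lyophilized value lay below every Control value, a separation in this direction found in 12.6% of all genes tested. The mean went from 18.9 ± 0.965 to 12.9 ± 0.843 FPKM (SD, n = 3), a ratio of 0.681, and the ratios within pairs 1 to 3 were 0.607, 0.741 and 0.702. The change was -0.55 on the log2 scale (SE 0.11, 95% interval -0.80 to -0.30), with an unadjusted p of 0.00108 and an adjusted p of 0.0842 in limma. With the block the SE was 0.078 and limma's adjusted p 0.00169. Over all settings tried, limma's adjusted p for CIITA ranged from 0.0698 to 0.596 without the block (16 fits, none called) and from 6.82e-05 to 0.0484 with it (13 fits, all called).

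CD74, whose product chaperones newly made class II dimers, was measured at 2864, 2159 and 2445 FPKM in Control and 2552, 1884 and 1963 FPKM in Lyophilized samples 1 to 3. The groups overlapped, because Lyophilized sample 1 lay above Control samples 2 and 3, yet each Lyophilized value was below that of its own partner, at ratios of 0.891, 0.873 and 0.803. The change was -0.23 (SE 0.18), with limma's adjusted p at 0.580 without the block and 0.00450 with it (SE 0.041). Of the 13 fits with the block, 9 called CD74, and limma did not call it with a GC correction (adjusted p 0.563), with no filter, with no variance trend or without pair 3 (0.0760 to 0.0818).

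The DR chains make the most abundant class II dimer of B cells. HLA-DRA was measured at 2369, 1547 and 1587 FPKM in Control and 2618, 1790 and 1748 FPKM in Lyophilized samples 1 to 3. The samples of pair 1 were the highest of each group, and the Lyophilized sample was above its partner in every pair, by ratios of 1.11, 1.16 and 1.10. The change was 0.16 (SE 0.23, adjusted p 0.772 in limma), and with the block the SE was 0.037 and the adjusted p 0.0107. Of the 13 fits with the block, 9 called HLA-DRA, and limma did not call it with median-ratio scaling between samples, with no filter, with no variance trend or without pair 3 (adjusted p 0.0641 to 0.120). HLA-DRB1, its polymorphic partner, was measured at 789, 482 and 507 FPKM in Control and 788, 523 and 510 FPKM in Lyophilized samples, and its change of 0.043 was called neither without the block (limma adjusted p 0.954) nor with it (0.450).

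The DP and DQ chains were also highest in pair 1 in both groups. HLA-DPA1 was measured at 825, 599 and 654 FPKM in Control and 882, 672 and 703 FPKM in Lyophilized samples, a change of 0.12 with a limma adjusted p of 0.772 without the block and 0.0392 with it. Of the 13 fits with the block, 6 called it, and limma did not when pair 1 or pair 3 was left out (adjusted p 0.0933 and 0.237). Nor was HLA-DPA1 called with median-ratio or upper-quartile scaling (limma adjusted p 0.167 and 0.123). With no filter, no variance trend or the GC correction, limma's adjusted p was 0.128, 0.207 and 0.0602. HLA-DPB1 ranged from 73.2 to 118 FPKM in Control and from 79.8 to 117 FPKM in Lyophilized samples, HLA-DQA1 from 346 to 554 and from 377 to 551, and HLA-DQB1 from 361 to 541 and from 368 to 550. Their changes of 0.059, 0.075 and 0.049 did not pass limma's threshold in either fit (adjusted p 0.214 to 0.383 with the block). The 95% intervals with the block, -0.054 to 0.17 for HLA-DPB1, -0.024 to 0.17 for HLA-DQA1 and -0.041 to 0.14 for HLA-DQB1, hold for values without a GC correction, and the fit with that correction is given further on. The loci of HLA-DPA1 and HLA-DPB1 overlap on opposite strands and the kit keeps no strand, so the division of reads between them is uncertain.

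HLA-DM does not present peptides itself but edits those that the classical molecules carry, and neither of its chains passed the test. HLA-DMA was measured at 154, 138 and 147 FPKM in Control and 141, 137 and 146 FPKM in Lyophilized samples, and each Lyophilized value was below its partner, in pairs 2 and 3 by less than 1 FPKM. HLA-DMB was measured at 54.6, 68.0 and 57.7 FPKM in Control and 49.4, 69.2 and 60.9 FPKM in Lyophilized samples, lower in pair 1 and higher in pairs 2 and 3. The changes of -0.044 and -0.014 were not called without the block (limma adjusted p 0.869 and 0.977) or with it (0.492 and 0.873), where their 95% intervals ran from -0.15 to 0.062 and from -0.15 to 0.12. The plot of changes with and without the pairing shows how much narrower the intervals became.

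**Figure D2:**
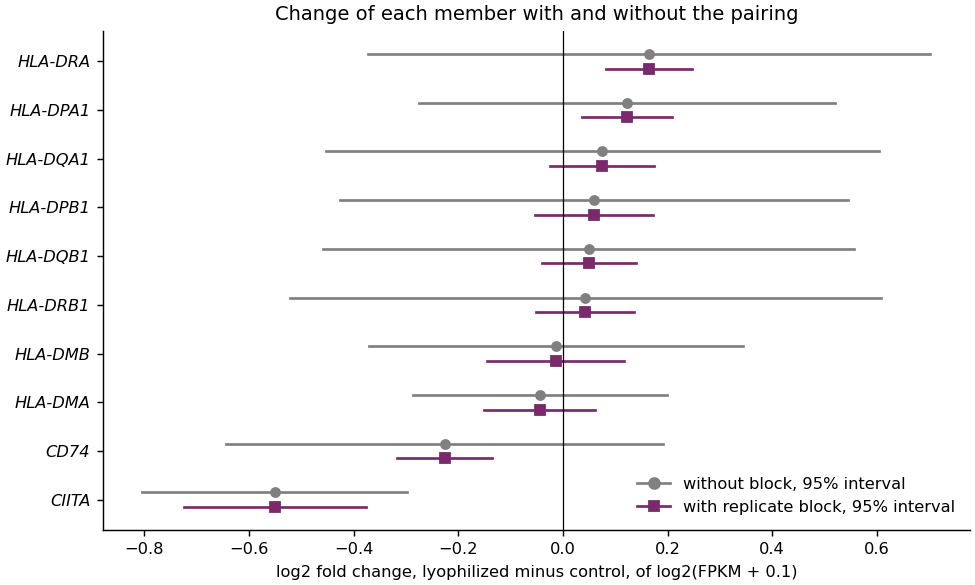
Change of each member on the log2 scale with its 95% interval from limma, without the pairing (grey circles) and with the pair as a block (purple squares). The estimates are the same in both fits, and only CIITA (-0.80 to -0.30) has an interval clear of 0 without the block, joined by CD74, HLA-DRA and HLA-DPA1 with it.

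Most members differed between pairs of samples, whichever the treatment. The F test of pair differences in limma called 8 of 10 members, against 45.2% of all genes, and 8 of 10 had their highest pair mean in pair 1, against 29.3% of all genes. For the 6 classical chains the mean of pair 1 was between 1.30 (HLA-DPA1) and 1.56 (HLA-DRB1) times the mean of pairs 2 and 3, with limma adjusted p of at most 2.8e-04. CD74 was 1.28 times as high in pair 1 (adjusted p 3.9e-04). HLA-DMB was highest in pair 2, at 68.6 FPKM against 52.0 in pair 1 and 59.3 in pair 3 (adjusted p 0.00474), a call that limma did not make with no filter or with no variance trend (0.0563 and 0.0524). The pair means of HLA-DMA (148, 138 and 147 FPKM) and CIITA (15.7, 15.5 and 16.4 FPKM) were not called different (adjusted p 0.296 and 0.718).

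Over the 6 samples, the 15 correlations between classical chains lay between r = 0.929 and 0.996, on values that share their pairs. As a description, the genes outside the members whose profile was most like the chains' mean were XCL2 (r = 0.9984), THAP3, ZG16B, RPLP0 and GAS5 (r = 0.9954). Those most like CIITA over the same 6 samples were C19orf55 (r = 0.9975), KANSL3, AHSA2, MAML1 and ZNF335 (r = 0.9937). Markers of activated or EBV-transformed B cells moved with the pairs as well. All 7 (FCER2, EBI3, CD70, CD80, CD86, TRAF1 and CCL22) were called for pair differences, against 45.2% of all genes. All 7 were highest in pair 1, against 29.3% of all genes. Their summed level ran from 1215 to 2043 FPKM in Control and 1097 to 1838 FPKM in Lyophilized samples. Of the 9 B cell markers, 8 were called for pair differences and 7 were highest in pair 1. The part of either set of markers in the chains' levels was not tested.

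**Figure D3:**
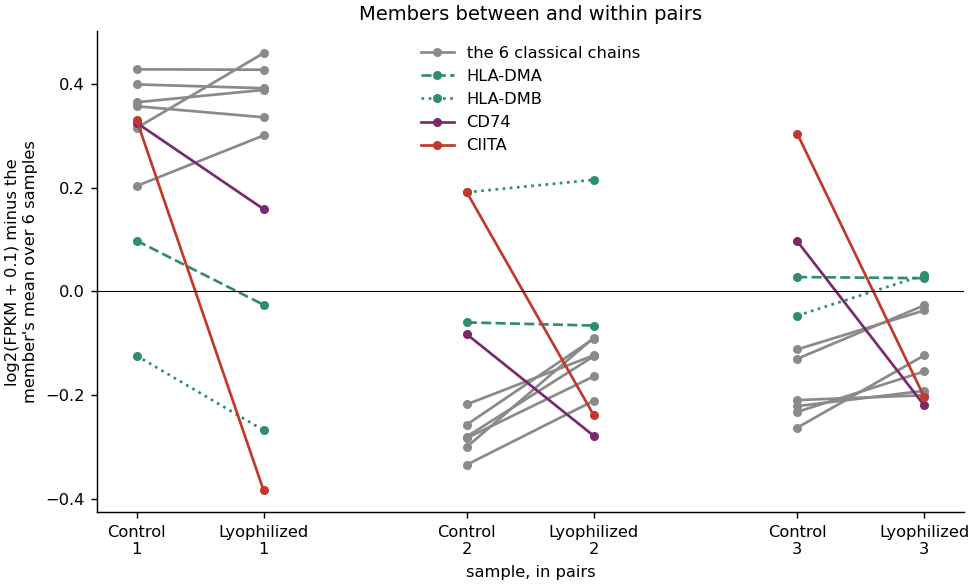
Level of each member on the log2 scale minus its own mean over the 6 samples, with lines joining the Control and Lyophilized sample of a pair. The 6 classical chains (grey) lie high in pair 1 and low in pairs 2 and 3, whereas CIITA (red) sits below its Control partner each time, at nearly equal pair means (15.5 to 16.4 FPKM).

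Ratios within a sample do not depend on a scaling shared by all genes of that sample, but they do depend on corrections that differ between genes. A set of 7 ratios between partners was compared by an exact two-sided permutation test of 3 against 3, which cannot give a p below 0.1. HLA-DRA over HLA-DRB1 was 3.00, 3.21 and 3.13 in Control and 3.32, 3.42 and 3.43 in Lyophilized samples. The groups did not overlap and the ratio was higher in 3 of 3 pairs (log2 difference 0.12, exact p 0.1, adjusted p 0.233 over the 7 ratios). CD74 over HLA-DRA was 1.21, 1.40 and 1.54 in Control and 0.975, 1.05 and 1.12 in Lyophilized samples, so CD74 exceeded HLA-DRA in every sample but Lyophilized sample 1. These groups did not overlap either (log2 difference -0.39, lower in 3 of 3 pairs, exact p 0.1, adjusted p 0.233).

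HLA-DRA over HLA-DQA1 went from 4.40 ± 0.104 to 4.68 ± 0.0646 (SD, n = 3) with no overlap, at the same exact p of 0.1. HLA-DPA1 over HLA-DPB1 was higher in 3 of 3 pairs, at 7.61 ± 0.610 and 7.94 ± 0.444, but the groups overlapped (exact p 0.5). HLA-DRA over HLA-DPA1 was also higher in 3 of 3 pairs with overlapping groups, at 2.63 ± 0.228 and 2.71 ± 0.244 (exact permutation p 0.7). The DQ chains stood near parity, with HLA-DQA1 over HLA-DQB1 at 0.991 ± 0.0331 in Control and 1.01 ± 0.0149 in Lyophilized samples (exact p 0.4). HLA-DMA over HLA-DMB followed the pairs, from 2.03 in pair 2 to 2.82 in pair 1 among the Control samples. No ratio passed the adjusted threshold, which this design cannot reach. After the GC correction described further on, applied to both genes, the log2 difference turned to -0.045 for HLA-DRA over HLA-DRB1 and to -0.12 for HLA-DQA1 over HLA-DQB1, and that of CD74 over HLA-DRA went from -0.39 to -0.18.

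**Figure D4:**
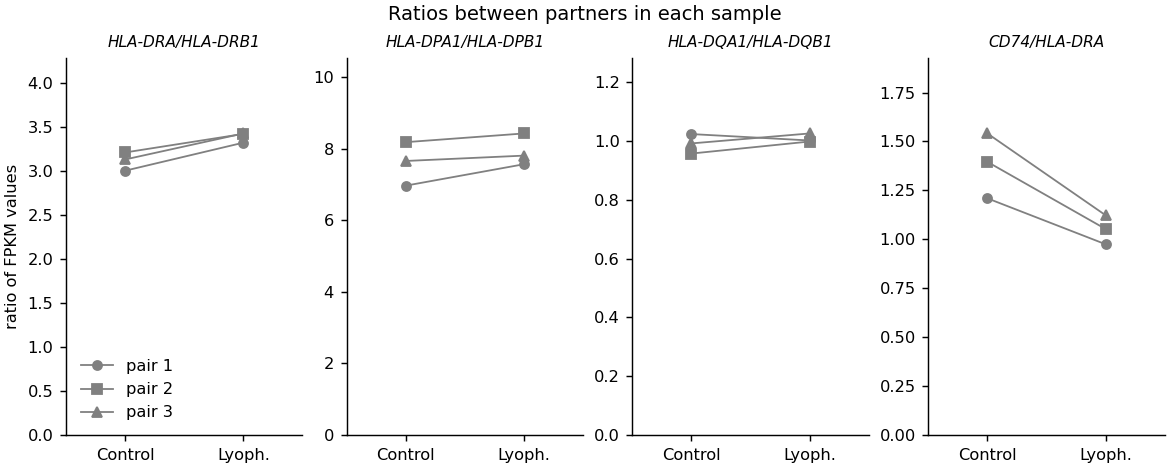
Ratio of FPKM values between partner genes in each sample, with lines joining the samples of a pair and axes that start at 0. Without a GC correction, HLA-DRA over HLA-DRB1 goes up and CD74 over HLA-DRA goes down in all 3 pairs, and HLA-DQA1 over HLA-DQB1 lies between 0.957 and 1.03. With it the first turns to a log2 difference of -0.045 and the second to -0.18.

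Changes across all genes ran along the GC content of the transcript, and CIITA and CD74, the members with the lowest changes, also had the highest GC content. The transcript of CIITA is 60.1% GC, more than 85.9% of genes, and that of CD74 is 57.8% GC, while the other 8 members lie between 45.7% (HLA-DPB1) and 55.1% (HLA-DRB1). The curve of change against GC content stood at -0.22 for CIITA's GC content and at -0.17 for that of CD74. CIITA lay a further 0.33 below the curve (log2 difference -0.33), and 5.68% of genes had a lower difference from it. CD74 lay -0.052 from the curve. Other properties that go with GC content were not separated here.

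With the curve subtracted in each sample and the block kept, limma called 4 of 10 members, but not the same 4. CIITA was lower (-0.33, SE 0.059, adjusted p 0.00872), against 7.21% of the 10866 genes with a GC value called lower. HLA-DRA (0.14, adjusted p 0.0346), HLA-DRB1 (0.18, adjusted p 0.0104) and HLA-DQB1 (0.13, adjusted p 0.0431) were higher, against 9.65% of genes called higher. CD74 (-0.044, adjusted p 0.563) and HLA-DPA1 (0.11, adjusted p 0.0602) were not called in that limma fit. The plot of change against GC content shows the members on this curve.

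**Figure D5:**
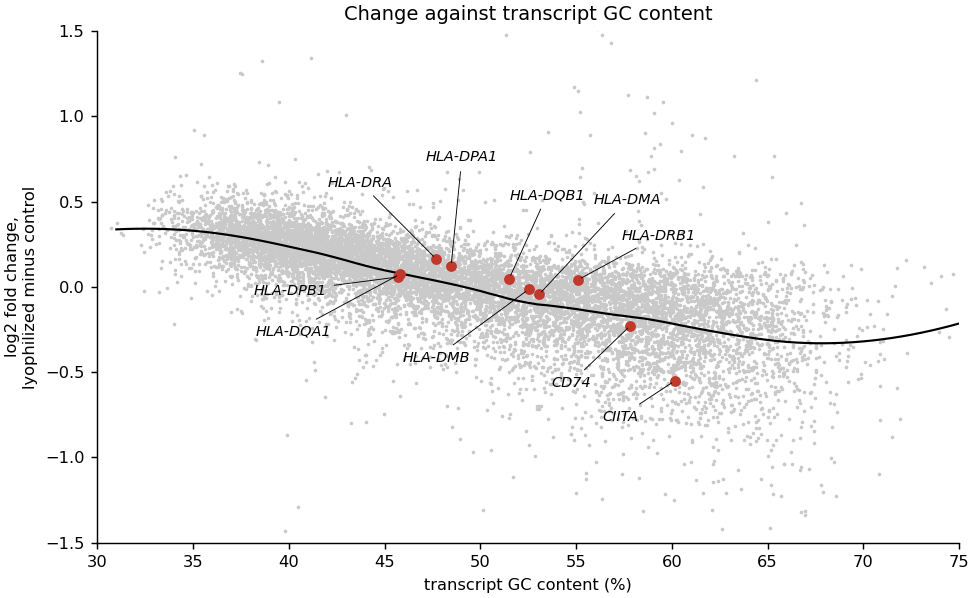
Change on the log2 scale against transcript GC content (%) for 10851 genes within the axes (grey), with the loess curve (black) and the 10 members (red). CIITA, at 60.1% GC and -0.55, lies farthest below the curve of the members, and CD74 lies close to it.

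The transcripts of the proteins on which CIITA docks were compared next. None of the 7 (RFX5, RFXAP, RFXANK, CREB1, NFYA, NFYB and NFYC) was called by limma with or without the block, and 0 had an unadjusted p below 0.05 without it. Their median change was 0.16, beside 0.039 over all genes. RFX5, the DNA-binding subunit of RFX, was at 40.1 to 42.9 FPKM in Control and 38.3 to 41.6 FPKM in Lyophilized samples. The RFX subunits RFXAP (2.18 to 3.77 and 2.21 to 4.30 FPKM) and RFXANK (33.1 to 35.2 and 30.3 to 34.1 FPKM) also overlapped between groups. CREB1 (4.04 to 4.93 and 5.22 to 5.73 FPKM) and NFYA (7.51 to 8.58 and 8.91 to 9.45 FPKM) were higher without overlap, as 9.66% of all genes were. NFYC (22.9 to 25.1 and 20.3 to 22.8 FPKM) was lower without overlap, as 12.6% of all genes were. NFYB was at 3.79 to 5.78 and 4.53 to 6.51 FPKM.

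Of 13 transcription factors that act on CIITA expression in B cells or plasma cells, 12 passed the filter, and limma called 0 of them without the block (1 with an unadjusted p below 0.05). With the block 4 were lower and 1 was higher, against 14.9% and 15.9% of all genes. TCF3, the E protein E2A, was at 46.0, 49.2 and 54.5 FPKM in Control and 32.2, 39.1 and 37.5 FPKM in Lyophilized samples (-0.46, limma adjusted p 0.164 and 0.00127 with the block). PAX5, which maintains B cell identity, had a change of -0.29 (limma adjusted p 0.357 and 0.0106). IRF2, an interferon regulatory factor, had a change of 0.14 (limma adjusted p 0.521 and 0.0978).

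Of 16 coactivators and repressors of CIITA or of transcription at class II promoters, limma called 2 lower and 0 higher without the block (6 with an unadjusted p below 0.05). Over all genes 0.575% were called. With the block 7 of the 16 were lower and 2 higher, against 14.9% and 15.9% of all genes. Among the lower ones were the paired histone acetyltransferases CREBBP (-0.63, limma adjusted p 0.0813 and 0.00275 with the block) and EP300 (-0.53, 0.187 and 0.00325). The list's median change was -0.14.

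Further class II genes were also read in both groups. Of HLA-DOA, HLA-DOB, HLA-DQA2 and HLA-DQB2, limma called 0 of 4 in either fit (0 with an unadjusted p below 0.05). Over all genes 0.575% were called without the block, and 14.9% lower and 15.9% higher with it. For pair differences 3 of 4 were called, against 45.2% of all genes. HLA-DOA and HLA-DOB, which form the modulator of HLA-DM, were at 34.4 to 44.9 and 22.7 to 27.8 FPKM in Control and at 35.8 to 42.5 and 21.9 to 27.5 FPKM in Lyophilized samples. HLA-DQA2 was at 17.7 to 35.2 and 24.5 to 35.7 FPKM and HLA-DQB2 at 5.00 to 7.16 and 3.03 to 6.04 FPKM. Of the 75-base windows in the HLA-DQA1 transcript 5.6% also occur elsewhere, all in HLA-DQA2, and of those in HLA-DRB1 2.4% occur in HLA-DRB5. The shares were 1.1% for HLA-DQB1 and 0.2% for HLA-DPB1, and the other 6 members were at 0.0%.

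Of 25 tested genes for endosomal processing and class II traffic, limma called 0 without the block (1 with an unadjusted p below 0.05) and 4 lower and 2 higher with it, at a median change of 0.00063. These counts are near or below the shares over all genes, which were 14.9% lower and 15.9% higher. IFI30, the thiol reductase of the class II compartment, was at 572 to 834 FPKM in Control and 555 to 817 FPKM in Lyophilized samples. CTSS, the protease that trims CD74, was at 22.1 to 30.1 and 22.6 to 30.6 FPKM. SPPL2A, which cleaves the last membrane fragment of CD74, was at 14.8 to 15.0 and 15.9 to 19.6 FPKM (0.23, limma adjusted p 0.412 and 0.0547 with the block). With the block in limma, AP2A1, a subunit of the endocytic adaptor that binds CD74's tail (-0.39, adjusted p 0.00205), CD81 (-0.30, 0.00250) and LAMP1 (-0.23, 0.0159) were lower and VPS26A of the retromer (0.32, 0.0117) was higher.

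The class I pathway gave a comparison with a neighbouring system. Without the block limma called 0 of 15 class I and peptide loading genes (2 with an unadjusted p below 0.05), and with it 5 lower and 2 higher, against 14.9% and 15.9% of all genes. For pair differences 13 of 15 were called, beside 8 of 10 class II members and 45.2% of all genes. HLA-B (limma adjusted p 0.819 and 0.0437 with the block) and HLA-C (0.983 and 0.813) had changes of -0.12 and -0.013, and the class I light chain B2M one of 0.19 (limma adjusted p 0.661 and 0.00548 with the block). Of the class I genes chosen here after their values were seen, NLRC5, the class I counterpart of CIITA, had a change of -0.47 (limma adjusted p 0.169 and 0.00244 with the block) and the peptide-loading chaperone TAPBP one of -0.54 (0.198 and 0.000429).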

How the data were processed

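Poly(A)-selected RNA (TruSeq v2, a kit that keeps no strand, 75-base single-end reads) was sequenced for 3 Control and 3 Lyophilized samples. TopHat 2.0.7 was the aligner and hg19 the build, and the authors, after flagging duplicates, deposited FPKM values from Cufflinks. Its version and annotation are not given in the sources used here. Deposited values were unfiltered, and no read counts were used. From 24934 records, 23284 symbols were kept at their highest mean FPKM, and 1622 symbols of small RNAs were left out of the fits. The study compared the groups without a pairing term.

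Genes with a mean FPKM above 1 in a group (11134) were tested with limma 3.58.1 (R 4.3.3) on log2(FPKM + 0.1) with a variance trend and Benjamini-Hochberg adjustment over all genes, with a second fit holding the pair as a replicate block. The labels give the pairing, and deviations from group means correlated within pairs (r = 0.716, 0.603 and 0.476). For the GC correction, a loess curve (span 0.3, degree 2) over GC content of GENCODE v44lift37 transcripts was subtracted per sample. Shared 75-base windows were searched on GRCh37. Ratios were tested by exact permutation. The fits were tested on simulated data. Python 3.11.15 was used.

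The members and lists, and the rule for the genes named, were chosen with earlier results of these data known. The rule takes all members, the docking factors and other class II genes, up to 4 or 5 genes by lowest unadjusted p from the longer lists, 3 endosomal genes, class I genes including HLA-B, HLA-C and B2M, and the 5 profiles most like. Some genes that it takes are not reported here. Further DRB copies were not used. Of 27 endosomal symbols 26 are listed, since CTSL stands under its older name CTSL1. Alternatives covered the pseudocount, filter, scaling, trend, records, block, GC correction and each sample or pair left out.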

Additional observations from a re-analysis of the deposited data

How the results depend on the processing

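The pairing decided most calls. Members called by limma went from 0 without the replicate block to 4 with it and to 4 with the block and the GC correction, and when each pair was left out in turn with the block, 1 to 4 were called (3 without pair 1, 4 without pair 2, 1 without pair 3). Over the longer gene lists 2 genes were called without the block, 27 with it and 18 with the block and the GC correction, 0 with no filter on low values or with the GC correction alone (an alternative chosen after seeing the data), 0 when any 1 sample was left out, and 14 to 36 with the block when a pair was left out (20 without pair 1). Over all genes the counts were 64 without the block, 3423 with it, 1832 with the block and the GC correction, 0 with no filter, with the GC correction alone or without any 1 sample, and 1257 to 5355 with the block and a pair left out (2205 without pair 1). The cause of the lost calls was not tested. With no filter 2069 of 18203 genes, with the GC correction alone 778, and without any 1 sample 885 to 2110 had an unadjusted p below 0.05 in limma.

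CIITA and CD74 were below 0 and HLA-DPA1 was above 0 in every fit. After the GC correction, with or without the block, the log2 change turned to -0.015 for HLA-DPB1, 0.066 for HLA-DMA and 0.087 for HLA-DMB, none of them called. Leaving out single samples moved the log2 change of HLA-DRA between -0.024 and 0.36, HLA-DRB1 between -0.16 and 0.27, HLA-DPB1 between -0.094 and 0.25, HLA-DQA1 between -0.10 and 0.29, HLA-DQB1 between -0.13 and 0.24, and HLA-DMB between -0.12 and 0.12. For the chains the lowest values came without Lyophilized sample 1 and the highest without Control sample 1, its partner, which removes the balance between pairs. HLA-DMB was 0.051 with the block and without pair 1. For pair differences 7 members in place of 8 were called with no filter and with no variance trend, where HLA-DMB was lost, and 8 with each other setting. Of the 7 ratios, HLA-DRA over HLA-DRB1 and HLA-DQA1 over HLA-DQB1 turned to log2 differences of -0.045 and -0.12 under the GC correction, added after seeing the data, and no ratio changed direction under the other alternatives run. Depth limits are not known from FPKM values, and with 3 pairs an exact sign-flip test cannot give a p below 0.25.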
